A study of Brassica napus and Camelina sativa and Thlaspi arvense with 24 samples.

Results

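In 104 genes of *Brassica napus*, the difference between true leaf and cotyledon ran in opposite directions in the lines N99 and DH12075. The genes were chosen from the deposited TPM (a gene's share of the transcripts of a library, corrected for transcript length) of both lines. A gene was taken when its mean was at least 1 TPM in each line, when its leaf minus cotyledon difference of mean log2(TPM + 1) was at least 1 in one line and at most -1 in the other, and when the 3 leaf and 3 cotyledon values did not overlap in either line. Of 123329 genes in the tables, 36652 reached the minimum mean and 104 of these were members, which is 0.284%. They formed 2 sets: 51 genes were higher in the leaf of N99 and lower in the leaf of DH12075 (0.139% of the genes tested), and 53 genes were higher in the leaf of DH12075 and lower in the leaf of N99 (0.145%). They are called the N99-leaf set and the DH12075-leaf set.

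The groups were true leaves of N99, cotyledons of N99, true leaves of DH12075 and cotyledons of DH12075, with 3 biological replicates each. The organs were fully expanded and came from young seedlings grown without a stress treatment in a growth chamber, and the lines differ by genotype alone in the labels. The series also holds 3 leaf and 3 cotyledon libraries each of *Camelina sativa* DH55 and of pennycress (*Thlaspi arvense*), which the choice of genes did not use. The labels name no transgene, mutation or treatment in any group.

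*B. napus* is an allopolyploid oilseed crop whose A and C subgenomes each contribute a copy of most genes, and further copies remain from an older genome triplication shared by *Brassica* species. The cotyledon is the embryonic leaf, which serves as a storage organ in the seed and turns green after germination, and the true leaf is formed later by the shoot apex. Both are photosynthetic in a young seedling, but they differ in age and in the stage of their development.

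Most genes that differed between the organs in both lines did so in the same direction. A leaf value higher by the same size and without overlap was found for 9.94% of the genes tested in N99 and 8.65% in DH12075, and a lower one for 6.25% in N99 and 9.87% in DH12075. Both lines had the higher value in leaf for 2164 genes (5.9%) and the lower value in leaf for 1229 genes (3.35%). Responses of opposite sign, whatever their size, were found for 10156 genes (27.7%). Without overlap and with no minimum size, 808 genes were higher in the leaf of N99 and lower in the leaf of DH12075, and 243 genes had the opposite arrangement. All 12 *B. napus* libraries entered the choice of members, so their values are described and no test was run on them.

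**Figure D1:**
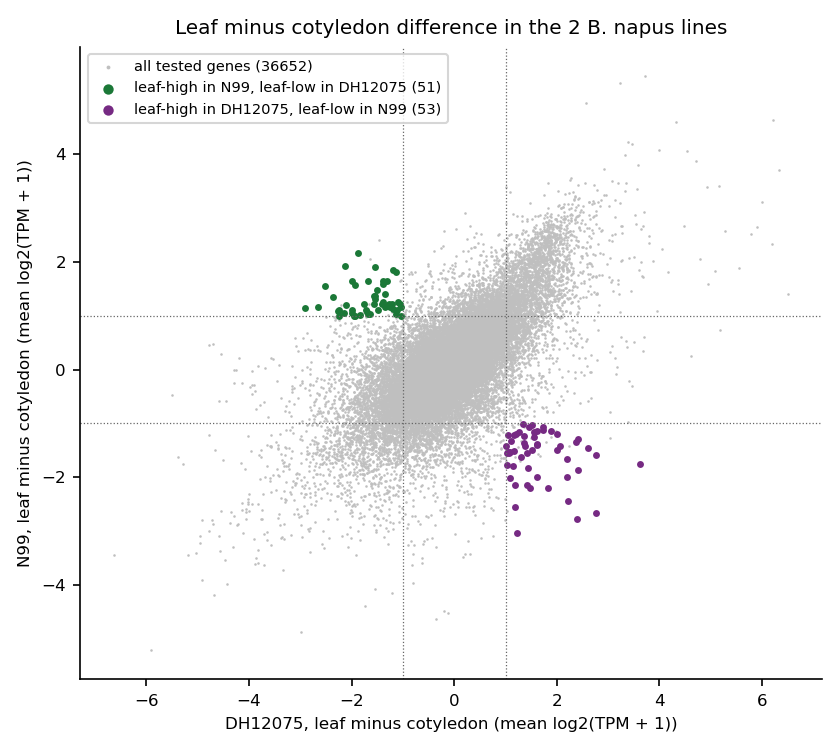
Leaf minus cotyledon difference of mean log2(TPM + 1) in N99 (vertical axis) against the same difference in DH12075 (horizontal axis). Grey points are the 36652 genes tested, coloured points the 51 and 53 members, and dotted lines mark differences of 1 and -1. The members lie in the upper left and lower right corners, away from the diagonal cloud in which both lines differ in the same direction.

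Some libraries stood apart. Each library summed to 1000000 TPM, and because TPM hold no read numbers the depth of a library is unknown. The 10 most abundant genes took 37.1% of the TPM in N99 cotyledon replicate 2, against 7.98% to 11.9% in the other 11 libraries, which leaves less of the total to its other genes. TPM were also rescaled in each library by the total without its own 10 most abundant genes, after which 38000 genes reached the minimum mean. Over the genes tested as deposited, the median N99 leaf minus cotyledon difference was then -0.05 on the log2 scale, against 0.05 before. The sets held 35 and 62 genes (36.1% and 63.9%) in place of 51 and 53 (49.0% and 51.0%). Without N99 cotyledon replicate 2, 43 and 60 genes met the rule, of which 40 and 52 were members. Reads of both lines were quantified on the DH12075 transcriptome, so transcripts that differ in sequence in N99 could be listed too low in both of its organs.

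The 51 genes of the N99-leaf set differed between the lines mainly in leaf. The median TPM over the set was 28.1, 22.9 and 31.3 in the N99 leaf libraries and 12.5, 8.65 and 9.36 in the N99 cotyledon libraries. It was 3.26, 3.85 and 4.37 in the DH12075 leaf libraries and 16.9, 12 and 13.0 in the DH12075 cotyledon libraries. By these medians the lines were closer in cotyledon than in leaf. Single genes varied, as the N99 minus DH12075 log2 difference in cotyledon ran from -3.65 to 2.47, with quartiles of -1.27 and 0.222. N99 leaf was the highest group mean in 37 genes and DH12075 leaf the lowest in 44.

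The leaf minus cotyledon difference over the set had a median of 1.21 in N99 and -1.56 in DH12075, against medians of 0.05 and -0.08 over all genes tested. The N99 minus DH12075 difference had a median of 2.52 in leaf and -0.51 in cotyledon. In leaf, N99 lay above DH12075 without overlap in 45 of 51 genes (88.2%, against 28.1% of all genes tested). In cotyledon, N99 lay above DH12075 without overlap in 8 genes (15.7%, against 18%) and below it in 20 (39.2%, against 30.9%). The 3 DH12075 leaf values were below the other 9 libraries in 33 genes (64.7%, against 11%), and the 3 N99 leaf values were above the other 9 in 27 genes (52.9%, against 6.78%). In 5 genes the N99 cotyledon values were below the other 9 libraries (9.8%, against 7.43%), and in 5 the DH12075 cotyledon values were above them (9.8%, against 14.2%). These shares follow in part from the way the members were chosen.

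The 53 genes of the DH12075-leaf set differed between the lines mainly in cotyledon. The median TPM over the set was 14.6, 12.3 and 6.57 in the N99 leaf libraries and 21.6, 21.0 and 40.3 in the N99 cotyledon libraries. It was 13.9, 12 and 14.2 in the DH12075 leaf libraries and 2.87, 3.18 and 4.88 in the DH12075 cotyledon libraries. Here N99 cotyledon was the highest group mean in 44 genes and DH12075 cotyledon the lowest in 43. By the medians over the set, the lines were closer in leaf than in cotyledon. Single genes varied in leaf, where the N99 minus DH12075 log2 difference ran from -3.72 to 3.43, with quartiles of -1.32 and 0.296.

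The leaf minus cotyledon difference over this set had a median of -1.49 in N99 and 1.47 in DH12075. The N99 minus DH12075 difference had a median of -0.34 in leaf and 2.85 in cotyledon. In cotyledon, N99 lay above DH12075 without overlap in 47 of 53 genes (88.7%, against 18% of all genes tested). In leaf, N99 lay above DH12075 without overlap in 7 genes (13.2%, against 28.1%) and below it in 18 (34%, against 26.3%). The 3 N99 cotyledon values were above the other 9 libraries in 35 genes (66%, against 4.28%), and the 3 DH12075 cotyledon values were below the other 9 in 28 genes (52.8%, against 5.19%). In 5 genes the N99 leaf values were below the other 9 libraries (9.43%, against 6.25%), and in 5 the DH12075 leaf values were above them (9.43%, against 6.2%). As in the N99-leaf set, these shares follow in part from the way the members were chosen.

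**Figure D2:**
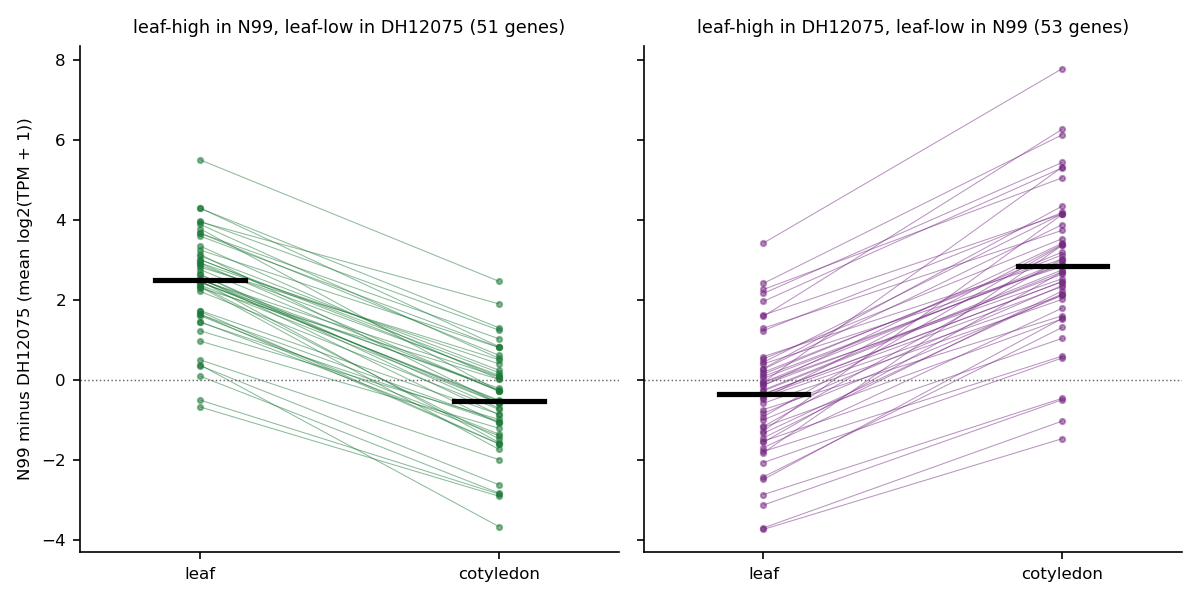
N99 minus DH12075 difference of mean log2(TPM + 1) in leaf (left of each panel) and in cotyledon (right) for the 51 genes of the N99-leaf set and the 53 genes of the DH12075-leaf set. Each line joins the 2 values of a gene and black bars are medians, which were 2.52 in leaf and -0.51 in cotyledon for the first set and -0.34 and 2.85 for the second.

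Single libraries stood out within the sets. For the DH12075-leaf set, N99 cotyledon replicate 3 was the highest of the 3 N99 cotyledon libraries for 46 of the 53 genes (86.8%, against 53.6% of all genes tested). It was the highest of the 12 libraries for 40 genes (75.5%, against 24.7%), a share that follows in part from the way the members were chosen. N99 leaf replicate 3 was the lowest of the 3 N99 leaf libraries for 42 of the 53 genes (79.2%, against 28.3%). Without N99 cotyledon replicate 3, 42 genes met the rule in this direction, of which 41 were members, and 54 genes in the other direction, of which 41 were members. Without N99 leaf replicate 3 the counts were 44 and 38. In DH12075, cotyledon replicate 3 was the highest of the 3 cotyledon libraries for 46 of the 53 genes (86.8%, against 48.3%). Without it, 84 genes were higher in the leaf of DH12075 and lower in the leaf of N99, including all 53 members. For the N99-leaf set, DH12075 leaf replicate 3 was the highest of its group for 40 of the 51 genes (78.4%, against 31.4% of all genes tested), and without it 57 genes met the rule, of which 49 were members.

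**Figure D3:**
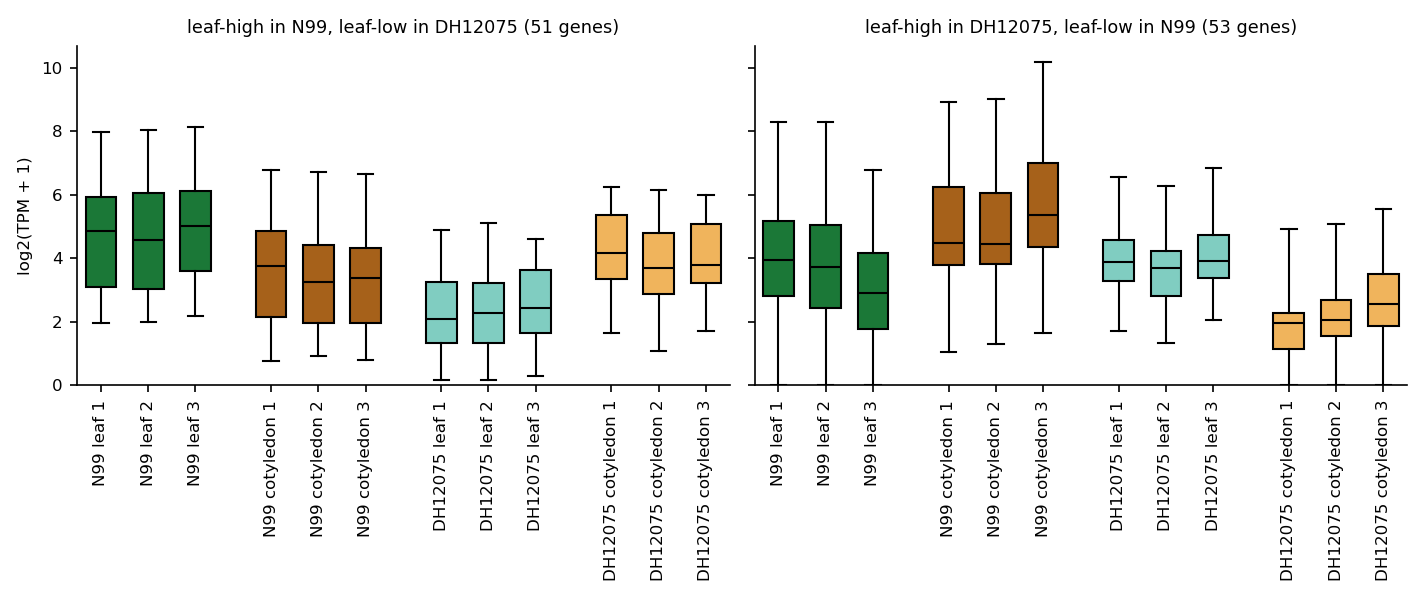
Values of the members in each of the 12 *B. napus* libraries on the log2(TPM + 1) scale, with the N99-leaf set in the left panel and the DH12075-leaf set in the right panel. Boxes are quartiles with the median, and whiskers reach the lowest and highest gene; in the right panel N99 cotyledon replicate 3 has the highest median of the 12 libraries.

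The members were spread over the genome. Gene IDs carry the subgenome and the chromosome number, and by these IDs the N99-leaf set had 20 genes on A chromosomes, 28 on C chromosomes and 3 on unplaced scaffolds. The DH12075-leaf set had 31 on A chromosomes (58.5%), 18 on C chromosomes (34%) and 4 on scaffolds, while 48% of all genes tested were on A and 48.1% on C chromosomes. The members fell on 18 of the 19 chromosomes, with none on A04 among its 1161 genes tested. The nearest members of a set, BnaC09g049830 and BnaC09g049960, were 13 genes apart in the order of IDs, and the next nearest, BnaA09g012050 and BnaA09g012550, were 49 apart. Coordinates and sequences are not given because the annotation used here is of another *B. napus* genome, in which none of the IDs was found.

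The tables give IDs without gene names; the suffix shared by all *B. napus* IDs is left out here. Pairing used the part held here (1938 rows) of the study's table of expression summed by *Arabidopsis thaliana* ortholog. Through it, 9 of the 104 members could be paired with 6 *A. thaliana* genes, and 927 of the 36652 genes tested were paired in all. Sets of 4 copies were sought around members only. The share of members paired therefore cannot be set against that of all genes tested. A gene that was not paired may still have an ortholog outside that part or among the rows left unsolved. Roles named here are those known from *A. thaliana*. For the other 95 members no role is given.

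The DH12075-leaf set held both paired copies of AT1G18330, which encodes RVE7 (also called EPR1), a MYB-related transcription factor of the REVEILLE family. Its transcript cycles over the day and responds to phytochrome, the red-light receptor. BnaA06g014790 had 5.23, 2.09 and 1.83 TPM in N99 leaf and 12.7, 13.7 and 25.2 TPM in N99 cotyledon. In DH12075 it had 25.6, 15.8 and 19.9 TPM in leaf and 3.34, 5.08 and 6.96 TPM in cotyledon. Its leaf minus cotyledon difference was -2.20 in N99 and 1.82 in DH12075. The second copy followed the same arrangement at a smaller size. BnaC05g017390 had 11.4, 6.02 and 6.60 TPM in N99 leaf and 20.8, 16.4 and 21.2 TPM in N99 cotyledon. It had 34.5, 26.8 and 25.9 TPM in DH12075 leaf and 8.90, 11.9 and 17.6 TPM in DH12075 cotyledon. The differences were -1.22 in N99 and 1.16 in DH12075, so both lines lay close to the minimum, and without DH12075 cotyledon replicate 1 the DH12075 difference was 0.95.

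The RVE7 orthologs of the other species were measured independently of the choice of members. In *C. sativa* DH55, all 3 copies fell in leaf (29.5% of the 41797 DH55 genes tested did so). Csa14g023600 had 12.8, 14.4 and 18.3 TPM in leaf and 48.3, 60.9 and 52.6 TPM in cotyledon, a log2 difference of -1.77 ± 0.16 (SE) with a limma adjusted p of 0.00101. Csa17g024100 differed by -1.37 ± 0.12 (limma adjusted p = 0.00105) and Csa03g022150 by -0.77 ± 0.11 (limma adjusted p = 0.00415). The last of these calls was lost without replicate 2, with an adjusted p of 0.0582. In pennycress, CAH2037015 had 91.3, 98.8 and 53.1 TPM in leaf and 79.9, 38.9 and 71.2 TPM in cotyledon. Its difference of 0.37 ± 0.34 did not pass (limma adjusted p = 0.418). The direction in DH55 was thus that of N99, and no direction was resolved in pennycress.

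From a list of 6 *A. thaliana* genes of light response and the circadian clock, the clock genes LHY and GI alone were paired. Their 3 copies held no member, where 0.284% of all genes tested were members. Among these copies, 1 had differences of opposite sign, where 27.7% of all genes tested did. The one copy of LHY, a morning-phased MYB repressor at the core of the clock, stood at 1.44, 0.432 and 1.59 TPM in N99 leaf and 5.27, 7.02 and 13.7 TPM in N99 cotyledon. That copy, BnaC05g000830, had 143, 147 and 136 TPM in DH12075 leaf and 261, 245 and 276 TPM in DH12075 cotyledon. It was lower in leaf in both lines, and far lower in N99 than in DH12075 in both organs. The copies of GI, an evening-phased clock protein, averaged 8.77 and 12.2 TPM in N99 leaf, against 2.23 and 2.84 TPM in DH12075 leaf. The part of these line differences in the values of RVE7 was not tested, and the labels do not give the hour of collection.

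The other paired member of the DH12075-leaf set was BnaA08g038460, 1 of 4 paired copies of AT1G02660. That gene encodes PLIP2, a plastid lipase that releases fatty acids from galactolipids. BnaA08g038460 had 1.85, 0.461 and 0.481 TPM in N99 leaf and 5.55, 7.47 and 6.40 TPM in N99 cotyledon. In DH12075 it had 2.30, 2.48 and 3.19 TPM in leaf and 0.795, 0.431 and 0.930 TPM in cotyledon. The differences were -2.02 in N99 and 1.09 in DH12075, and the DH12075 difference was 0.97 without DH12075 cotyledon replicate 2 and 0.99 without DH12075 leaf replicate 3. The other 3 copies were alike in DH12075, where leaf exceeded cotyledon by 1.16 to 1.80, but in N99 they differed by only -0.26 to -0.35 and their organs overlapped. The most abundant of them, BnaA09g068380, had 33.2, 27.0 and 17.3 TPM in N99 leaf and 28.3, 25.8 and 45.6 TPM in N99 cotyledon, against 6.60, 7.87 and 3.63 TPM in DH12075 leaf and 0.718, 1.01 and 1.13 TPM in DH12075 cotyledon.

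Of the PLIP2 orthologs, Csa14g002690 of DH55 had 2.76, 2.33 and 1.12 TPM in leaf and 0.813, 0.849 and 0.590 TPM in cotyledon. It rose in leaf by 0.77 ± 0.22 (limma adjusted p = 0.0331), as 7.97% of the DH55 genes tested did, and the call was lost without the minimum of mean TPM (adjusted p = 0.0535) and without replicate 1 or 2. The pennycress ortholog CAH2039099 differed by -0.44 ± 0.28 (limma adjusted p = 0.251).

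The remaining 6 paired members belonged to the N99-leaf set and were copies of NIMIN1, CRT3, RDA2 and GWD1. NIMIN1 (AT1G02450) encodes a small protein that binds NPR1, the coactivator of salicylic acid responses, and limits the induction of defence genes. Of its 4 paired copies, 2 were members. BnaC05g001240 had 7.37, 4.55 and 13.3 TPM in N99 leaf and 1.85, 2.49 and 1.51 TPM in N99 cotyledon. It had 0.399, 0.375 and 0.405 TPM in DH12075 leaf and 5.25, 2.87 and 5.14 TPM in DH12075 cotyledon. Its difference was 1.58 in N99 and -1.93 in DH12075. BnaA09g068470 had 2.91, 6.74 and 6.79 TPM in N99 leaf and 1.48, 2.21 and 2.69 TPM in N99 cotyledon. It had 0.415, 0.292 and 0.270 TPM in DH12075 leaf and 5.18, 2.21 and 5.65 TPM in DH12075 cotyledon, with differences of 1.0 in N99 and -1.94 in DH12075. This copy was at the threshold in N99, where rescaling without the 10 most abundant genes gave 0.93 and quantile normalization 0.99. Without N99 leaf replicate 2, N99 leaf replicate 3 or N99 cotyledon replicate 1 it was 0.84, 0.84 and 0.85.

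The other 2 NIMIN1 copies missed the threshold in N99 alone. BnaA10g001300 had 11.7, 8.03 and 12.3 TPM in N99 leaf and 3.99, 4.66 and 6.15 TPM in N99 cotyledon, a difference of 0.97, and its difference in DH12075 was -2.34. BnaC08g068730 differed by 0.76 in N99 and -2.00 in DH12075. All 4 copies were thus at or below 1.53 TPM in every DH12075 leaf library and at or above 2.21 TPM in every DH12075 cotyledon library. The 3 copies of DH55 had means under 1 TPM and were not tested. The pennycress ortholog CAH2039129 had 0.0803, 0.206 and 0.223 TPM in leaf and 1.11, 15 and 1.4 TPM in cotyledon, so that 1 cotyledon library held most of its signal. Its difference of -1.89 ± 0.74 did not pass (limma adjusted p = 0.0867), and with a pseudocount of 0.1 TPM it did (adjusted p = 0.0297).

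CRT3 (AT1G08450) encodes a calreticulin of the endoplasmic reticulum that helps to fold the immune receptor EFR. Of its 4 paired copies, 2 were members, and they were among the more abundant genes of the set. BnaC08g065420 had 107, 105 and 137 TPM in N99 leaf and 61.9, 42.6 and 56.2 TPM in N99 cotyledon. It had 12.5, 10.2 and 18.9 TPM in DH12075 leaf and 61.5, 39.9 and 40.1 TPM in DH12075 cotyledon. The cotyledons of the lines overlapped, and the leaves did not. Its differences were 1.11 in N99 and -1.71 in DH12075, and the N99 difference was 0.78 after quantile normalization, 0.98 after rescaling, 0.96 without N99 cotyledon replicate 2 and 0.99 without N99 leaf replicate 3. BnaA09g065440 had 57.3, 58.3 and 76.9 TPM in N99 leaf and 26.7, 19.5 and 26.4 TPM in N99 cotyledon. It had 6.71, 5.09 and 9.80 TPM in DH12075 leaf and 29.1, 20.7 and 18.6 TPM in DH12075 cotyledon, with differences of 1.37 in N99 and -1.55 in DH12075.

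The other 2 CRT3 copies had the same signs at smaller sizes, with 0.82 in N99 and -0.54 in DH12075 for BnaA08g035900, and 0.58 in N99 and -0.69 in DH12075 for BnaC08g024620. The ortholog of DH55, Csa03g011890, had 8.79, 8.73 and 8.53 TPM in leaf and 19.0, 11.4 and 15.6 TPM in cotyledon. It fell in leaf, with a log2 difference of -0.73 ± 0.17 (limma adjusted p = 0.0193), a call that was lost without replicate 1 (adjusted p = 0.0886) or replicate 3 (adjusted p = 0.103). The pennycress ortholog CAH2038572 had 354, 213 and 334 TPM in leaf and 269, 595 and 312 TPM in cotyledon and did not pass (-0.33 ± 0.34, limma adjusted p = 0.474).

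RDA2 (AT1G11330) encodes a lectin receptor kinase of the cell surface that takes part in the response to microbial lipids. BnaC05g009930 was the one member of its 2 paired copies. It had 37.4, 34.7 and 44.3 TPM in N99 leaf and 16.7, 13.6 and 18.4 TPM in N99 cotyledon, and 2.08, 1.5 and 3.49 TPM in DH12075 leaf and 13.2, 5.95 and 8.11 TPM in DH12075 cotyledon. All N99 libraries lay above all DH12075 libraries for this gene, and the differences between organs were 1.21 in N99 and -1.57 in DH12075. The other copy, BnaA06g008460, differed by 1.02 in N99 and by 0.03 in DH12075. None of the 3 DH55 copies passed, with differences of -0.09, -0.07 and 0.27, and the pennycress ortholog CAH2034576 did not pass either (-0.65 ± 0.22, limma adjusted p = 0.0538).

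GWD1 (AT1G10760, also SEX1) encodes the glucan water dikinase that phosphorylates starch and so opens the granule to breakdown at night. BnaC08g063950 had 13.5, 15.4 and 12.1 TPM in N99 leaf and 10.1, 4.30 and 2.88 TPM in N99 cotyledon. It had 1.48, 1.69 and 1.86 TPM in DH12075 leaf and 6.10, 6.80 and 5.27 TPM in DH12075 cotyledon, with differences of 1.25 in N99 and -1.39 in DH12075. Without N99 cotyledon replicate 3 the N99 difference was 0.92. Of the other copies, BnaA08g034510 differed by 1.06 in N99 and -0.77 in DH12075, and BnaC08g027120 by 0.52 in N99 and -0.88 in DH12075. The fourth paired copy, BnaA09g064080, was close to 0 in all libraries, with a highest value of 0.395 TPM. The gene with the preceding ID, BnaA09g064070, was a member that was not paired here. It had 14.9, 21.8 and 17.0 TPM in N99 leaf and 8.69, 3.37 and 2.59 TPM in N99 cotyledon, against 2.34, 2.14 and 2.76 TPM in DH12075 leaf and 6.35, 7.41 and 5.87 TPM in DH12075 cotyledon. It was singled out after its values were seen.

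The GWD1 orthologs of DH55 were higher in leaf on average. Csa03g014380 had 5.57, 5.88 and 5.90 TPM in leaf and 4.66, 3.41 and 3.54 TPM in cotyledon and rose by 0.49 ± 0.12 (limma adjusted p = 0.0198), which was lost without replicate 2 (adjusted p = 0.155) or replicate 3 (adjusted p = 0.109). The other copies differed by 0.32 and 0.11 and did not pass. The pennycress ortholog differed by -0.22 ± 0.18 (limma adjusted p = 0.367).

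Of the 11 DH55 copies of these genes that were tested, 4 fell in leaf, 2 rose and 5 did not pass the limma test, where 29.5% of all DH55 genes tested fell and 7.97% rose. Of the 6 pennycress orthologs, 0 passed after adjustment by the same test, where 20.6% of all pennycress genes tested fell and 15.6% rose, and 2, of NIMIN1 and RDA2, had an unadjusted p under 0.05.

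**Figure D4:**
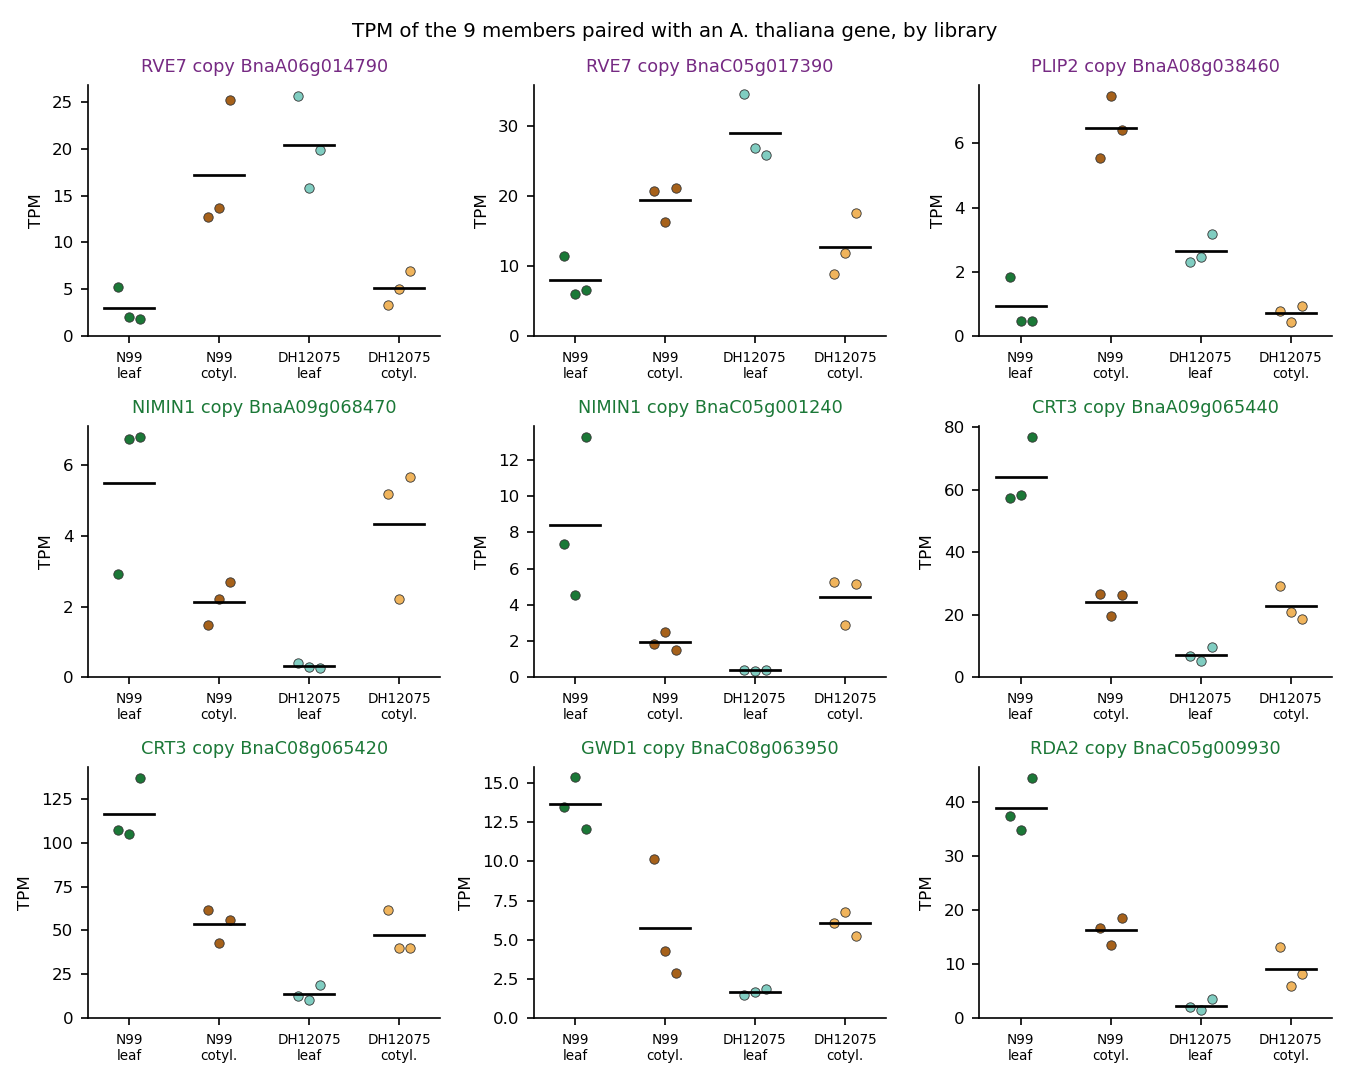
TPM of the 9 members paired with an *A. thaliana* gene, in N99 leaf, N99 cotyledon, DH12075 leaf and DH12075 cotyledon. Points are single libraries and bars are means of 3. Titles in purple belong to the DH12075-leaf set and titles in green to the N99-leaf set. In each panel the organs do not overlap within a line, as the rule required.

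**Figure D5:**
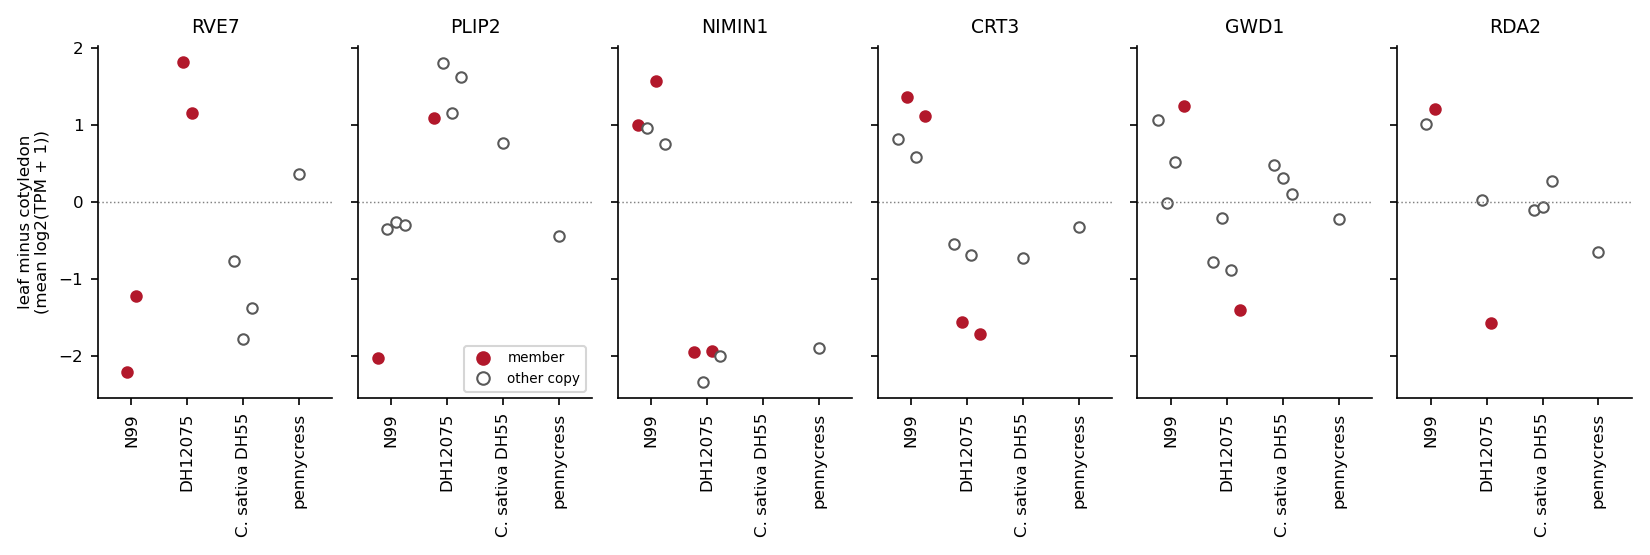
Leaf minus cotyledon difference of mean log2(TPM + 1) for all paired copies of the 6 *A. thaliana* genes in N99, DH12075, *C. sativa* DH55 and pennycress. Filled red points are members and open points other copies, and copies of DH55 and pennycress are drawn where their mean was at least 1 TPM. The RVE7 copies of DH55 lie below 0 at -0.77 to -1.77, on the side of N99.

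Most members were not paired, and whether they have an *A. thaliana* ortholog was not determined. The following are the unpaired members of each set whose smaller difference was largest among those with a mean of at least 10 TPM in each line, and those with the highest mean. Such a mean was reached by 21 genes of the N99-leaf set and 20 of the DH12075-leaf set, paired ones included. In the N99-leaf set, BnaA01g018020 had 233, 263 and 123 TPM in N99 leaf and 87.3, 53.7 and 27.5 TPM in N99 cotyledon. It had 11.7, 8.36 and 23.4 TPM in DH12075 leaf and 59.9, 69.5 and 55.0 TPM in DH12075 cotyledon, with differences of 1.93 in N99 and -2.13 in DH12075. The cotyledon values of the lines overlapped, and N99 leaf lay far above DH12075 leaf. BnaC01g023570, on the C chromosome of the same number, had 78.3, 101 and 52.7 TPM in N99 leaf and 36.9, 21.4 and 15.6 TPM in N99 cotyledon. It had 12.5, 8.23 and 15.9 TPM in DH12075 leaf and 51.4, 55.5 and 43.4 TPM in DH12075 cotyledon. BnaS71057g010, on an unplaced scaffold, had 62.0, 116 and 59.0 TPM in N99 leaf and 29.7, 21.2 and 6.14 TPM in N99 cotyledon, against 10.5, 10.8 and 17.4 TPM in DH12075 leaf and 49.3, 49.0 and 47.8 TPM in DH12075 cotyledon. Its N99 difference of 2.17 was the highest of the set. In these 3 genes the cotyledon of N99 was below that of DH12075 in mean, at 56.2 against 61.5 TPM, 24.6 against 50.1 TPM and 19.0 against 48.7 TPM.

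BnaC09g049830 had 194, 253 and 283 TPM in N99 leaf and 72.9, 50.5 and 68.3 TPM in N99 cotyledon. It had 11.9, 7.90 and 14.8 TPM in DH12075 leaf and 71.6, 19.2 and 30.1 TPM in DH12075 cotyledon, where replicate 1 exceeded the others. Its differences were 1.91 in N99 and -1.55 in DH12075. BnaC09g045590 was as abundant, with 254, 146 and 235 TPM in N99 leaf and 110, 104 and 72.4 TPM in N99 cotyledon, against 28.5, 33.4 and 23.0 TPM in DH12075 leaf and 75.2, 58.5 and 63.4 TPM in DH12075 cotyledon. Its N99 difference of 1.12 was 0.99 after rescaling and 0.83 after quantile normalization, so that its place in the set depended on the scaling, and it was 0.97 without N99 leaf replicate 1 and 0.94 without N99 cotyledon replicate 3. BnaA08g035600, BnaA09g056900 and BnaC09g032360 had N99 differences of 1.64, 1.4 and 1.55, and DH12075 differences of -1.68, -1.35 and -2.51. In the last, DH12075 cotyledon was the highest group, at 67.0, 22.5 and 52.1 TPM, against 7.29, 3.7 and 10.7 TPM in DH12075 leaf.

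In the DH12075-leaf set, BnaA02g028730 had the highest mean and the widest gap between the cotyledons. It had 312, 310 and 110 TPM in N99 leaf and 487, 517 and 1173 TPM in N99 cotyledon, against 22.9, 12.3 and 26.2 TPM in DH12075 leaf and 1.43, 1.77 and 3.07 TPM in DH12075 cotyledon. In both organs all N99 values were above all DH12075 values, and the cotyledon means differed 347-fold. Its differences between organs were -1.59 in N99 and 2.77 in DH12075. BnaA01g039710 had 142, 131 and 27.7 TPM in N99 leaf and 222, 212 and 441 TPM in N99 cotyledon. It had 92.0, 76.8 and 81.0 TPM in DH12075 leaf and 2.91, 5.07 and 12.6 TPM in DH12075 cotyledon, and its DH12075 difference of 3.62 was the highest of the set. BnaA09g025960 had 164, 130 and 88.3 TPM in N99 leaf and 327, 276 and 350 TPM in N99 cotyledon, against 22.1, 21.1 and 23.6 TPM in DH12075 leaf and 2.31, 3.59 and 5.01 TPM in DH12075 cotyledon. In the first and second of these genes N99 leaf replicate 3 was the lowest and N99 cotyledon replicate 3 the highest of its group by a wide margin, while in BnaA09g025960 the replicates were closer.

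BnaA07g044080 was closer between the lines, with 35.1, 28.4 and 12.4 TPM in N99 leaf and 82.2, 86.2 and 188 TPM in N99 cotyledon. It had 70.3, 52.9 and 72.1 TPM in DH12075 leaf and 20.1, 21.4 and 26.9 TPM in DH12075 cotyledon, with differences of -2.20 in N99 and 1.47 in DH12075. In this gene DH12075 was above N99 in leaf and below it in cotyledon, without overlap in either organ. BnaA06g041760, BnaA10g034040, BnaC03g065980 and BnaC07g067760 had N99 differences of -1.46 to -1.56 and DH12075 differences of 1.42 to 2.60. Their N99 cotyledon means were 23.2 to 95.8 TPM, against 2.25 to 7.61 TPM in DH12075 cotyledon.

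At a threshold of 4-fold on the log2(TPM + 1) scale in both lines, 3 genes met the rule, all in the DH12075-leaf set. By ratios of mean TPM, other members of both sets also exceeded 4-fold in both lines. An example is BnaC05g001240 of the N99-leaf set, at 4.30 in N99 and 11.2 in DH12075. The 3 genes that met the rule are named because they are so few. BnaA09g012050 had 7.61, 3.03 and 0.942 TPM in N99 leaf and 17.2, 16.3 and 52.9 TPM in N99 cotyledon, against 9.60, 7.63 and 9.20 TPM in DH12075 leaf and 0.271, 0.340 and 0.785 TPM in DH12075 cotyledon. BnaC02g031810 was more abundant, with 91.7, 71.8 and 8.83 TPM in N99 leaf and 179, 172 and 348 TPM in N99 cotyledon, against 14.7, 7.27 and 17.3 TPM in DH12075 leaf and 1.02, 1.41 and 3.79 TPM in DH12075 cotyledon. It and the scaffold gene BnaS34602g010 had N99 differences of -2.45 and -2.79 and DH12075 differences of 2.22 and 2.40. BnaS34602g010 was listed at 0 in N99 leaf replicate 3 and in DH12075 cotyledon replicates 1 and 2. At the other end, the members nearest the threshold were BnaA07g022890, with 1.0 in N99 and -2.24 in DH12075, and BnaA02g018000, with -1.01 in N99 and 1.33 in DH12075. The nearest genes outside it were BnaA05g012810, with 0.99 in N99 and -1.20 in DH12075, and BnaA07g044480, with -2.40 in N99 and 0.98 in DH12075.

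The remaining members had the same arrangement over a wide range of levels. Mean TPM per gene in the N99-leaf set was 2.02 to 154 in N99 (median 20.8) and 1.03 to 47.0 in DH12075 (median 9.74). In the DH12075-leaf set it was 1.63 to 485 in N99 (median 19.7) and 1.69 to 61.8 in DH12075 (median 8.40), against medians of 5.40 and 5.50 TPM over all genes tested. The quartiles of the N99-leaf set were 1.1 and 1.43 for the N99 difference and -1.97 and -1.31 for the DH12075 difference. For the DH12075-leaf set they were -1.83 and -1.24 in N99 and 1.19 and 2.0 in DH12075. The line difference in leaf reached 5.51 in the N99-leaf set and the line difference in cotyledon 7.79 in the DH12075-leaf set. In 8 genes of the N99-leaf set and 7 of the DH12075-leaf set every N99 library lay above every DH12075 library (15.7% and 13.2%, against 8.23% of all genes tested), and in 1 gene of each set every DH12075 library lay above every N99 library (1.96% and 1.89%, against 11.7%). Scaffold genes with values of 0 TPM are listed at 0 and were kept, such as BnaS00968g020, which stood at 0 in all 3 N99 leaf libraries and at 4.79, 5.63 and 4.24 TPM in N99 cotyledon, against 5.82, 4.24 and 3.20 TPM in DH12075 leaf and 0, 3.04 and 2.16 TPM in DH12075 cotyledon. It was singled out because of these zeros.

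Gene lists for processes that could differ between organs were looked up among the paired genes. None of their copies was a member, where 0.284% of all genes tested were. With so few copies, holding no member says nothing about these processes. The lists were chosen with earlier results of these data known. Of 7 genes induced by carbon starvation or darkness, 4 were paired with 7 copies, and 6 of the 7 copies had differences of opposite sign in the lines, where 27.7% of all genes tested did. Of these 6, the copies of DRM1 and TPS9 were lower in the leaf of N99 and higher in the leaf of DH12075 in mean. Both copies of TPS7 had the reverse signs. The 6 were pairs of copies of the same genes, which had alike values and are not independent. The median difference over the 7 copies was -1.04 in N99 and 0.59 in DH12075, against 0.05 and -0.08 over all genes tested. DRM1, a dormancy-associated gene repressed by sugar, was the nearest to membership. BnaA09g037100 had 63.9, 77.5 and 39.2 TPM in N99 leaf and 69.8, 96.6 and 254 TPM in N99 cotyledon, where the organs overlapped. It had 9.14, 9.85 and 6.77 TPM in DH12075 leaf and 2.87, 3.0 and 4.37 TPM in DH12075 cotyledon. BnaC05g029720, the other DRM1 copy, differed by -1.06 in N99 and 1.17 in DH12075. Both copies of TPS9, of the trehalose phosphate synthase family, were lower in the leaf of N99 without overlap, with differences of -1.85 and -1.71. They differed by 0.66 and 0.59 in DH12075, where the organs overlapped. N99 cotyledon replicate 3 was the highest of its group for both, at 97.3 and 134 TPM, as it was for both DRM1 copies. The TPS7 copies, of the same family, differed by 0.18 and 0.26 in N99 and by -0.42 and -0.38 in DH12075. The one copy of MCCA, a carboxylase subunit of leucine breakdown, differed by -0.82 in N99 and -0.34 in DH12075, with overlap in both lines.

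The photosynthesis list served as a check that both organs were green. Of its 12 genes, 4 were paired with 9 copies. LFNR2, a ferredoxin reductase of the thylakoid, averaged 527 TPM in N99 leaf and 376 TPM in N99 cotyledon, and 395 TPM in DH12075 leaf and 406 TPM in DH12075 cotyledon for its most abundant copy, BnaA07g015890. Of the 9 copies, 3 had differences of opposite sign, close to the 27.7% of all genes tested. By size and lack of overlap 2 were higher in the leaf of N99 (9.94% of all genes tested), both of LHCA6, an antenna protein of photosystem I. The N99 cotyledon libraries were uneven in LHCA6, at 46.8, 21.2 and 12.1 TPM for BnaA08g030720 and 149, 69.5 and 46.5 TPM for BnaC08g032750. The LFNR2 copy BnaA07g015890 had 476, 289 and 363 TPM in the same libraries. In the jasmonate and stress list, 2 of 7 copies had opposite signs, again near 27.7%, and both were of ATAF1, a NAC transcription factor. Both copies of CLH1, a chlorophyllase, were higher in the leaf of DH12075 by 2.30 and 1.74 without overlap (8.65% of all genes tested), and in N99 they differed in the same direction by 1.4 and 1.0 with overlap. In the cell division list, 0 of 5 copies had opposite signs, against the same 27.7%, and the median difference was 0.57 in N99 and 0.77 in DH12075.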

How the data were processed

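RNA was sequenced from leaves and cotyledons of 4 lines (24 libraries). Per the methods and labels, adapters and poor bases were removed with Trimmomatic 0.32, and transcripts were quantified with Salmon 1.10.0 on each species' own transcriptome (that of DH12075 for both *B. napus* lines) and summarised to genes with tximport. The authors deposited these values as TPM, without log transformation or pooling, in a table per line. Every value column was assigned to a sample. TPM give no counting error, so precision was judged by the spread between replicates, and fold changes on the log2(TPM + 1) scale understate those of low genes.

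Members were found by the rule above in Python 3.11.15. The members and gene lists were chosen with earlier results of these data known. An *A. thaliana* gene was assigned by finding a set of IDs, at most 4 in *B. napus* and 3 in *C. sativa*, that matched its summed expression. Sets of at most 2 IDs were sought for every sum in these species. In *B. napus*, sets of 3 were sought only for genes of the lists or with a member in the set. Sets of 4 were sought only with a member in the set. In *C. sativa*, sets of 3 were sought only for genes of the lists or genes paired with a member. The sums were those in the part of the study's table held here. The TPM of each ID were multiplied by a weight fitted for that ID, and each library had a common factor. The weighted TPM had to add up to the sum in every library (relative tolerance 1e-07). In DH12075, 781 of the 1617 sums searched were paired and 0 fitted more than 1 set. Of 200 simulated sums of 2 genes 200 were recovered, and of 300 shuffled sums searched with at most 2 genes 0 were paired. The search for larger sets, which gave the 4 copies each of NIMIN1, PLIP2, CRT3 and GWD1, was not checked in this way. Values of that table were not used otherwise.

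Leaf was compared with cotyledon in DH55 and in pennycress with limma 3.58.1 in R 4.3.3 (lmFit, eBayes with trend) on log2(TPM + 1), leaving out genes whose mean was under 1 TPM, with Benjamini-Hochberg adjustment over all genes tested and a threshold of 0.05, a step tested on simulated data. Named genes were, in each set, the 8 with the largest smaller difference among those with a mean of at least 10 TPM in each line, the 3 with the highest mean, those nearest the threshold and every paired member. Whether same-numbered libraries were from the same plants is not stated, and p-values measure the spread between these replicates. Alternatives were the pseudocount, the minimum mean, the normalization, the threshold, the overlap, a replicate block and leaving out each library.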

Additional observations from a re-analysis of the deposited data

Results flagged for a closer look

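The sets were drawn so that the organs differ in opposite directions in the lines, so the following differences between the lines are descriptions and were not tested. The N99 minus DH12075 difference of the leaf minus cotyledon responses had a median of 2.95 over the N99-leaf set and -3.00 over the DH12075-leaf set, on the log2 scale. For the paired members it was -4.03 for BnaA06g014790 and -2.38 for BnaC05g017390 (RVE7), -3.11 for BnaA08g038460 (PLIP2), 3.50 for BnaC05g001240 and 2.95 for BnaA09g068470 (NIMIN1). It was 2.92 for BnaA09g065440 and 2.83 for BnaC08g065420 (CRT3), 2.78 for BnaC05g009930 (RDA2) and 2.65 for BnaC08g063950 (GWD1). As the rule required of every member, the leaf libraries of N99 lay on one side of its cotyledon libraries, and those of DH12075 on the opposite side.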

How the results depend on the processing

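The 51 genes of the N99-leaf set and the 53 of the DH12075-leaf set became 96 and 72 with a pseudocount of 0.1 TPM (168 in all). They were 244 and 139 (383 in all) at a threshold of 1.5-fold, and 0 and 3 (3 in all) at a threshold of 4-fold. Both thresholds were set on the log2(TPM + 1) scale. After quantile normalization they were 36 and 67 (35.0% and 65%), and after rescaling 35 and 62 (36.1% and 63.9%), against 49.0% and 51.0% as deposited. The other changes of setting left each count within 1.5 times its value. Leaving out 1 library gave 38 to 62 genes in the N99-leaf set, 41 to 84 in the DH12075-leaf set and 82 to 134 in all. The highest counts of the DH12075-leaf set and of all members (84 and 134) came without DH12075 cotyledon replicate 3, and the lowest of the N99-leaf set and of all members (38 and 82) without N99 leaf replicate 3. Of the 25 members chosen for naming, 22 met the rule after quantile normalization and 22 after rescaling.

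The deviations of same-numbered leaf and cotyledon libraries from their group means correlated at -0.37 to 0.19. With so few replicates this cannot show whether they came from the same plants. With a replicate block, 56 and 65 genes (121 in all) met the rule, including all 104 members. In DH55 the block gave 9389 genes that fell in leaf and 2692 that rose, in place of 12310 and 3330. In pennycress it gave 1708 that fell and 1592 that rose, in place of 3004 and 2279, and it changed no call of an ortholog named here. Without 1 replicate number, 3416 to 6887 genes fell and 767 to 2379 rose in DH55, and 758 to 1783 fell and 989 to 1683 rose in pennycress. The fewest calls came without replicate 2 in DH55 and without replicate 3 for both directions in pennycress. Over the fits without 1 replicate number, 5 orthologs that did not pass had differences of either sign, from -0.010 to 0.19 for Csa17g014640, -0.23 to 0.062 for Csa03g014980, -0.19 to 0.16 for Csa14g014080, -0.69 to 0.25 for CAH2038572 and -0.11 to 0.76 for CAH2037015. The cause of these changes was not tested. With no read depth, values near 0 TPM could not be told from absence of signal.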
